A study of Mus musculus with 9 samples.

Results

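The comparison described here is that of immunized mice given SR59230A with immunized mice without it, in LSK cells, the bone marrow cells that lack lineage markers and carry Sca1 and cKit, in which blood stem cells and multipotent progenitors lie. Its members are the 6 libraries whose labels name these groups, of 9 in the series, and all genes in them. All mice were C57BL/6. The EAE group is 3 mice immunized with the myelin peptide MOG35-55 in complete Freund's adjuvant and taken 3 days later, a model of autoimmune encephalomyelitis. The treated group is 3 mice immunized in the same way and given SR59230A, an antagonist of β3-adrenergic receptors, over the 3 days after immunization. The remaining 3 mice were naive, and their values are given for orientation. Their libraries also entered the filter and the estimate of spread used in the test. The labels describe the replicates as separate mice. They name no dose, no vehicle for the EAE group and no group given SR59230A without immunization, so the antagonist and its administration cannot be told apart. All 6 mice had received adjuvant and peptide together. The series title places β3-adrenergic receptors on stromal cells, which lie outside the sort gate.

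Sympathetic nerves reach the bone marrow and release noradrenaline, which acts there through β-adrenergic receptors coupled to Gs, adenylyl cyclase and protein kinase A. The β3 receptor is best known in marrow from stromal cells, where adrenergic signals lower the chemokine Cxcl12 and so loosen the hold of the niche on stem and progenitor cells. LSK cells give rise to the lymphoid, myeloid, erythroid and megakaryocytic lineages, and low levels of lineage genes are already present in them.

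The deposited values are whole numbers that behave as adjusted values rather than reads, so depth is unknown and counting intervals are not given. They summed to between 8911691 and 10387955 in the 6 libraries. Across the 9 libraries they are tied by 2 linear relations, which fall almost wholly within the groups, so the spread between replicates may be understated. EAE replicate 2 stood apart from the other EAE libraries on the third principal component, which held 13.2% of the variance. Receptor genes of smell, pheromone and taste cells (chemosensory genes), for which LSK cells have no known use, held 0.107% to 0.121% of the summed values in EAE libraries and 0.0806% to 0.1% in treated libraries, without overlap. Genes that define the gate were high in all 6 libraries: Kit lay between 4850 and 5290, Ly6a, which encodes Sca1, between 1880 and 2540, and Cd34 between 6430 and 7000. In bulk RNA, fewer cells of a type and less RNA per cell cannot be told apart.

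A single gene of the 13018 tested was called between treated and EAE mice at the threshold used, the carbonic anhydrase gene Car1. Genes that were not called may still differ. Car1 encodes an enzyme that interconverts carbon dioxide and bicarbonate and is abundant in the erythroid lineage. Its scaled value was 332, 337 and 329 in EAE libraries and 728, 899.9 and 862 in treated libraries. All 3 treated libraries lay above all 3 EAE libraries, and the naive libraries (540.3, 546 and 542) lay between the groups. The means were 333 ± 3.67 and 830.0 ± 90.1 (SD, n = 3 each). The small SD of the EAE libraries, and that of the naive libraries (2.87), may be understated because linear relations tie the values. Car1 rose 2.49-fold in treated mice, a log2 fold change of 1.32 ± 0.10 (SE) with a 95% interval from 1.09 to 1.54 (adjusted p = 0.000516 over all genes, from limma-trend and the Benjamini-Hochberg method). With a term for the chemosensory genes, whose share also differed between the groups, the log2 fold change was 1.48 and the call was lost (adjusted p = 0.0602). It was also lost without treated replicate 2 when both linear relations were kept as terms (1.18, adjusted p = 0.368), and over all alternatives the adjusted p ran from 8.89e-05 to 0.368. Leaving out any 1 library with the relations found anew kept it.

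The call of Car1 made up 0.00768% of the genes tested, and 0 genes (0%) were called lower. At an unadjusted p under 0.05, 504 genes (3.87%) stood out, where this threshold passes 650.9 of as many genes if none differ. Of these, 290 (2.23%) were higher in treated mice and 214 (1.64%) lower. This split turned to 229 higher and 263 lower with upper-quartile scaling and to 86 higher and 359 lower without scaling. The 3 treated libraries all lay above the 3 EAE libraries in 1101 genes (8.46%) and all below them in 1004 (7.71%). Log2 fold changes had a median of 0.01, and 6833 genes (52.5%) had a positive one. For 10326 genes (79.3%) the 95% interval of the difference lay within 2-fold in both directions. Among the 4627 genes with a mean of at least 500 this held for 99.4%, and among the 2279 genes with a mean under 20 for 8.42%.

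**Figure D1:**
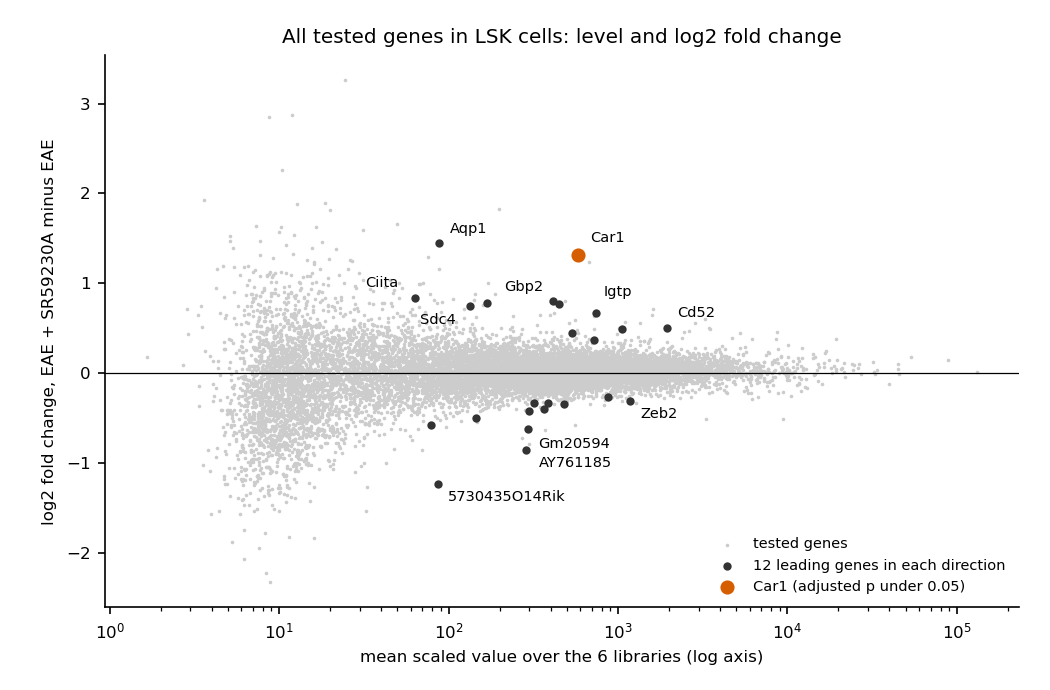
Each point is 1 of the 13018 tested genes, by its mean scaled value over the 6 libraries (log axis) and its log2 fold change in treated against EAE mice. Dark points are the 12 leading genes in each direction, named where there was room, and the large point is Car1, which stands at 1.32 and was called. Most genes with a mean above 100 lie close to 0, and the cloud widens below that level.

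Beside Car1, the other early erythroid genes had small positive differences that did not pass the test. Of 44 listed symbols 36 were in the table and 33 were tested, and 1 of these, Car1, was called. All 33 had a positive log2 fold change, against 52.5% of all tested genes, although 28 did without scaling and 32 with upper-quartile scaling. The median was 0.28, against 0.01 for all tested genes. It was 0.47 with the chemosensory term, with 29 positive, and 0.09 without treated replicate 2 when both linear relations were kept as terms, with 22 positive. In 17 of them (51.5%) the treated libraries all lay above the EAE libraries, against 8.46% of all tested genes. Rhd, counted in the 33 and in the 17, was tested only because its treated values were high enough. The median of the list was -0.095 to 0.088 in EAE libraries, 0.248 to 0.385 in treated libraries and 0.173 to 0.312 in naive libraries, on a log2 scale relative to each gene's EAE mean. Treated and naive libraries are here both set against the same EAE libraries, so the 2 differences share them.

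Among membrane and transport genes of red cells, Aqp1, which encodes the water channel aquaporin 1, stood at 51.5, 60.4 and 32.3 in EAE libraries and 124, 143 and 118 in treated libraries. Every treated library was above every EAE library, with a log2 fold change of 1.44 ± 0.24 that did not pass (adjusted p = 0.243). Ank1, which encodes the ankyrin that ties the membrane to the spectrin skeleton, was at 32.5, 30.7 and 35.4 against 57.0, 65.2 and 62.2, a log2 fold change of 0.89 ± 0.22. Add2, a gene for the skeletal protein β-adducin, was at 10.8, 16.4 and 19.8 against 35.6, 32.6 and 37.8 (1.16 ± 0.35). In both genes the groups were apart. The Rh family genes Rhd (8.13, 2.05 and 5.21 against 23.4, 25.5 and 12.2) and Rhag (14.4, 12.3 and 11.5 against 21.4, 24.5 and 23.3) were low in every library, and their treated values all lay above the EAE values. Outside the treated libraries Rhd reached the value required for testing only in naive replicates 2 and 3. It was thus tested only because its treated values were high enough, so its direction and separate groups follow in part from the filter. Slc4a1, which encodes the anion exchanger band 3, was at 45.1, 48.1 and 14.6 and 48.8, 84.6 and 65.5, so that the lowest treated library came within 1 unit of the highest EAE library. Car2, a second carbonic anhydrase gene, had values of 3210.0, 3212 and 2945 in EAE and 3713, 3630.0 and 3298 in treated libraries, a log2 fold change of 0.19 ± 0.09. The naive libraries had much higher Car2 values (8921, 7889 and 8125), whereas for Car1 they lay below the treated ones.

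Among regulators of the lineage, Tal1, a transcription factor gene required for blood formation, was at 217, 245 and 219 in EAE libraries and 306, 311 and 302 in treated libraries. Epor, which encodes the erythropoietin receptor, was at 61.4, 40.9 and 46.9 against 69.2, 87.6 and 75.5. The groups of both genes were apart, with log2 fold changes of 0.44 ± 0.13 and 0.64 ± 0.24. Gata1, which encodes the main transcription factor of erythroid cells, overlapped between the groups at 92.1, 103 and 85.5 against 99.7, 93.8 and 92.2, and its interval ran from -0.37 to 0.42. Zfpm1, which encodes the GATA cofactor FOG1, had a log2 fold change of 0.14 ± 0.09, and Ldb1 and Lmo2, 2 partners in the same complex, of 0.04 ± 0.10 and 0.17 ± 0.16. Klf1, a transcription factor gene of erythroid cells, was under the limit for testing, and its deposited values were 3, 2 and 4 in EAE libraries and 9, 12 and 11 in treated libraries.

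Genes of heme synthesis and iron uptake differed by little. Blvrb, a gene for biliverdin reductase B, had a log2 fold change of 0.32 ± 0.16, and Tfrc, which encodes the transferrin receptor, one of 0.13 ± 0.09. The enzyme genes Alad, Urod and Cpox overlapped between the groups, with log2 fold changes of 0.12, 0.06 and 0.12. Alas2, which encodes the rate-limiting enzyme of erythroid heme synthesis, overlapped widely at 47.9, 37.9 and 25.0 against 21.4, 56.1 and 55.5. Alas2 is also a marker of maturing erythroid cells outside the gate, and the part of such cells in the other values was not tested. The adult globin genes Hbb-bt, Hbb-bs, Hba-a1 and Hba-a2 were listed but were not among the deposited symbols, so they could not be analysed.

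**Figure D2:**
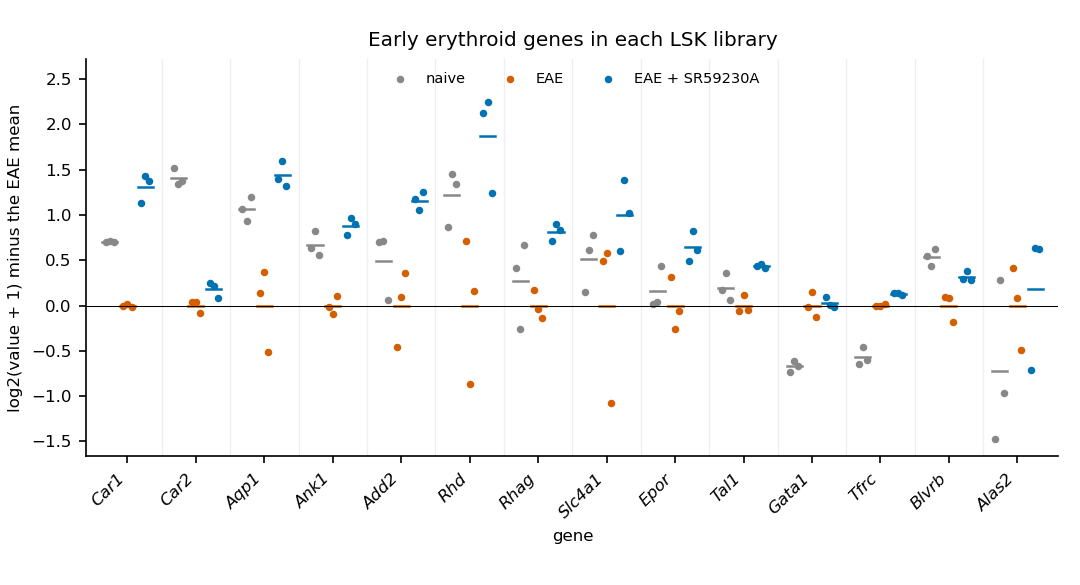
Points are single libraries and lines are group means of log2(value + 1) minus the gene's EAE mean, for 14 early erythroid genes in naive, EAE and treated mice. Treated values of Car1, Aqp1, Ank1 and Add2 all lie above the EAE values, while those of Gata1 and Alas2 overlap with them.

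The 250 bases upstream of 3 erythroid genes are shown because these genes had the lowest p of those with separate groups, after Car1, and a single window outside annotated untranslated regions. For Rhd the separate groups, and so its choice, follow in part from the filter. They come from RefSeq on build GRCm38.p6 and run 5′ to 3′ along the gene, and the build of the deposited table is not given in the sources used here. Capitals mark GATAA, the core letters bound by GATA factors, and CACCC, the core of sites for KLF1 and related factors, on either strand. Aqp1 lies at chr6:55336049-55336298 (+), Rhd at chr4:134864286-134864535 (+) and Add2 at chr6:86028431-86028680 (+).
Aqp1: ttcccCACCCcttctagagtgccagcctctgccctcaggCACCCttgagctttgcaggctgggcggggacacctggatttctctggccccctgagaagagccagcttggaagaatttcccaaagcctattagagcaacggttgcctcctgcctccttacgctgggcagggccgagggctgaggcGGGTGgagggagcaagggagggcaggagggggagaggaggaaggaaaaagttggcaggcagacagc
Rhd: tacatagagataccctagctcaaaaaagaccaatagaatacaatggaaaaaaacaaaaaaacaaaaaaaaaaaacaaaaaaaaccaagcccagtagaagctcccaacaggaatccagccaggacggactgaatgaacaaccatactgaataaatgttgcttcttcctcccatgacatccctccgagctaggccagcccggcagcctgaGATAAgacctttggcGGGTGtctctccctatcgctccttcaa
Add2: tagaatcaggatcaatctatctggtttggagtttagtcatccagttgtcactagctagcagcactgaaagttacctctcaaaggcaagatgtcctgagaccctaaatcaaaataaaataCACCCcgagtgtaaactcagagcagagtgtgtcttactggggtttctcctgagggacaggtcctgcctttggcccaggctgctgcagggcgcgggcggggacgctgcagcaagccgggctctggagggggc
GATAA was in the Rhd window and absent from the other 2, and each of the 3 windows held CACCC. Over all 32851 promoter windows of this length in the table, 22.6% held GATAA and 52.0% held CACCC. Of the 33 tested erythroid genes 22 had 32 windows, and GATAA was in 11 (34.4%) and CACCC in 26 (81.2%) of them. A match is a description of the letters and not a bound site.

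Genes of major histocompatibility complex (MHC) class II and interferon-gamma responses were 1 of several further sets with shared small differences. Medians were larger in the dendritic cell, natural killer and B cell lists given below (0.67, 0.58 and 0.44). Interferon-gamma signalling acts on promoters with GAS sites and induces guanylate-binding proteins, immunity-related GTPases and the class II transactivator CIITA. Of 46 listed symbols 35 were tested and 0 were called. Positive log2 fold changes were found in 32 and negative ones in 3, with a median of 0.22 against 0.01 for all tested genes. Without scaling 26 were positive, and 30 with upper-quartile scaling. The median was 0.13 without scaling and 0.12 with the chemosensory term. The treated libraries lay above the EAE libraries in 16 genes and below them in 1, against 8.46% and 7.71% of all tested genes. By library the list stood at -0.03 to 0.06 in EAE, 0.172 to 0.268 in treated and -0.065 to -0.004 in naive mice.

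The immunity-related GTPase gene Igtp stood at 615, 503 and 592 in EAE libraries and 863, 963 and 886 in treated libraries. These groups were far apart relative to their spread, with a log2 fold change of 0.67 ± 0.11 and an interval from 0.42 to 0.91, but the gene did not pass over all genes (adjusted p = 0.243). Irgm1, of the same family, differed by less, at 622, 660.0 and 689 against 739, 752 and 799.6 (0.22 ± 0.10). The guanylate-binding protein gene Gbp2 was at 312, 265 and 421 and 477, 579.9 and 622, a log2 fold change of 0.77 ± 0.17. Gbp4 (103, 105 and 199 against 247, 222 and 248) and Gbp9 (82.2, 75.7 and 159 against 181, 161 and 187) had groups that were apart as well, in each case with EAE replicate 3 close to the treated libraries. Gbp7 was at 1056, 883 and 1224 against 1286, 1315 and 1278, a log2 fold change of 0.31, whereas Gbp3 overlapped completely (907, 1053 and 994 against 908, 959 and 1098). Guanylate-binding protein genes and the GTPase genes have close relatives, so reads may have been divided among copies in a way the sources used here do not describe.

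Ciita, which encodes the transactivator of class II genes, was at 44.2, 44.0 and 47.9 in EAE libraries, 81.4, 84.6 and 78.8 in treated libraries and 80.1, 80.6 and 74.2 in naive libraries. The EAE libraries alone were low, and the treated and naive libraries overlapped. The log2 fold change against EAE was 0.84 ± 0.19, with an interval from 0.42 to 1.25. Of the genes that CIITA controls, some had separate groups and others overlapped, and none passed the test. The class II chain genes H2-Eb1 (94.8, 116 and 143 against 248, 184 and 167), H2-Aa (95.7, 113 and 168 against 209.5, 206 and 211) and H2-Ab1 (84.9, 95.2 and 114 against 168, 148 and 132) had groups that were apart. Their log2 fold changes were 0.76 ± 0.24, 0.78 ± 0.30 and 0.61 ± 0.27, and their naive values ranged more widely than those of either immunized group. Cd74, the invariant chain gene, overlapped at 1436, 2355 and 3192 against 4483, 2757 and 2754. The class II peptide-loading genes H2-DMa, H2-DMb1 and H2-DMb2 had log2 fold changes of 0.14, 0.11 and 0.01, each overlapping between the groups.

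Class I genes differed by little. H2-D1, a class I heavy chain gene, was at 7145, 7461 and 7116 against 8661, 8474 and 8129, a log2 fold change of 0.22 ± 0.10, while H2-K1 and the β2-microglobulin gene B2m had 0.06 ± 0.12 and 0.05 ± 0.11. The peptide transporter genes Tap1 and Tap2 had 0.16 ± 0.08 and 0.13 ± 0.09, and the immunoproteasome genes Psmb8, Psmb9 and Psmb10 overlapped at 0.07, 0.08 and 0.09. The receptor genes of interferon-gamma were not higher: Ifngr1 had a log2 fold change of -0.16 and Ifngr2 one of -0.22, with the treated libraries of Ifngr2 (218, 236 and 231) all below those of EAE mice (302, 254 and 246). Irf1, a transcription factor gene that interferon-gamma induces, overlapped at 3041, 3925 and 4749.6 against 4808, 4237 and 4859.6. The chemokine gene Cxcl9 was low at 23.5, 19.4 and 29.2 against 28.5, 49.9 and 65.5. Genes of antiviral responses, which type I interferons also induce, had a smaller median of 0.13 over 32 genes, 28 of them positive and 0 called. Without scaling 19 were positive, with a median of 0.04, and the median was 0.03 without EAE replicate 2, 0.24 without EAE replicate 3 and 0.01 with the chemosensory term. Oas3, which encodes an oligoadenylate synthetase, was at 526, 553 and 582 against 677, 661 and 681 (0.28 ± 0.10), and Irf7, a regulator of interferon genes, at 909, 848 and 1049.6 against 1117, 1090.4 and 1122 (0.25 ± 0.11).

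**Figure D3:**
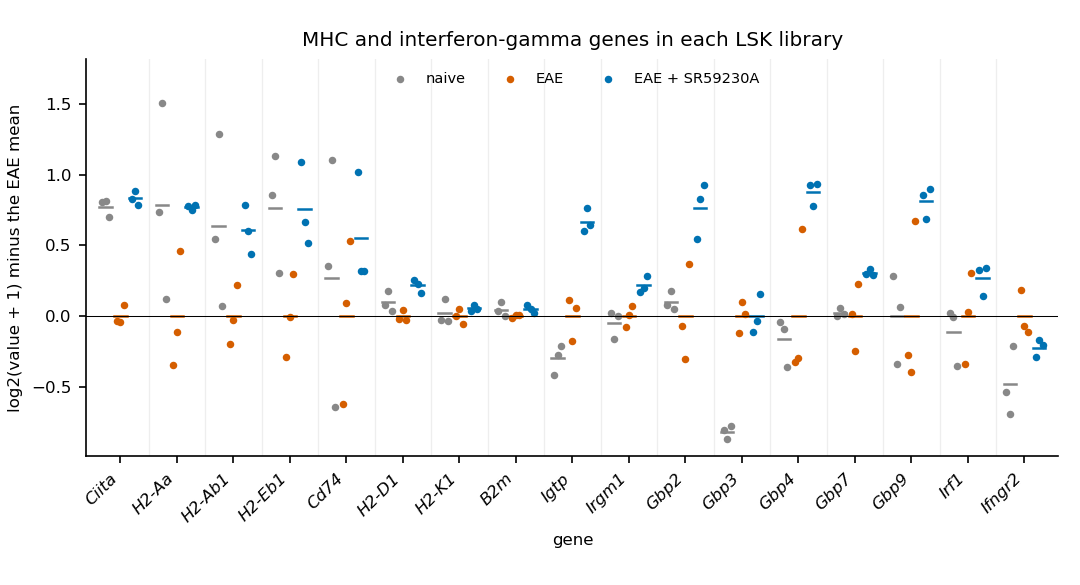
Points are single libraries and lines are group means of log2(value + 1) minus the gene's EAE mean, for 17 genes of MHC presentation and interferon-gamma responses. Treated values of Ciita, Igtp and Gbp4 lie above all EAE values, and those of H2-K1, Gbp3 and Irf1 overlap with them.

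Upstream windows of 4 genes are shown by the same choice (lowest p among genes with separate groups, 1 window each, outside annotated untranslated regions). Capitals mark GAS sites, written TTCNNNGAA, the core of interferon-stimulated response elements (ISRE), a pair of GAAA with any 2 bases between, and CCAAT boxes, which belong to the shared upstream module of class II promoters. Both strands were searched. Igtp lies at chr11:58199306-58199555 (+), Gbp7 at chr3:142530086-142530335 (+), H2-Eb1 at chr17:34305617-34305866 (+) and H2-Aa at chr17:34287824-34288073 (-), all on GRCm38.p6 from RefSeq.
Igtp: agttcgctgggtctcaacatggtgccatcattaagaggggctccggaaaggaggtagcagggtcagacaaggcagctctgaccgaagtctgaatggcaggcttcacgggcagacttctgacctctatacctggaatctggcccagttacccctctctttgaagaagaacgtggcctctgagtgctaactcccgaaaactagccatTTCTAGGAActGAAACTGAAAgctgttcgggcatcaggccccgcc
Gbp7: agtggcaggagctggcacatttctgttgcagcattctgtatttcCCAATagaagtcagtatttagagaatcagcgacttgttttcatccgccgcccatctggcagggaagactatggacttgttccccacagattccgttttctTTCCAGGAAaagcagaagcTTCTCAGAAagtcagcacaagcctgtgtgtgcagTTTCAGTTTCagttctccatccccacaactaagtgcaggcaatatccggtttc
H2-Eb1: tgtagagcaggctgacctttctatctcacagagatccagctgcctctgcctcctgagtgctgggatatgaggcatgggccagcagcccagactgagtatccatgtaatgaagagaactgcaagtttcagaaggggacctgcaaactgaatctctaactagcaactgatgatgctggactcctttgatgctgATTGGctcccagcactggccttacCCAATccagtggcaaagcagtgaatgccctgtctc
H2-Aa: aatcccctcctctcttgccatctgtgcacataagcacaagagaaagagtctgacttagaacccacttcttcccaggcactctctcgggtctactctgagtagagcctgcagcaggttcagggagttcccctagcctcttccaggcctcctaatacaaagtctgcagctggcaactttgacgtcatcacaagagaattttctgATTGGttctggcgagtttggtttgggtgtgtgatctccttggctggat
In the Igtp window a GAS match begins at -45 and an ISRE core at -34, counted from the annotated start. Gbp7 held GAS matches at -106 and -87 and an ISRE core at -53. Neither class II window held these motifs, and both held CCAAT, with 2 matches for H2-Eb1 and 1 for H2-Aa. Across all 32851 windows 7.02% held a GAS match, 2.98% an ISRE core and 33.8% CCAAT. Of the 35 tested genes of the list 28 had 33 windows, in which GAS occurred in 7 (21.2%), the ISRE core in 8 (24.2%) and CCAAT in 22 (66.7%).

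The receptor that SR59230A blocks was at or near the lower limit of the table in LSK cells. Adrb3 had deposited values of 3, 0 and 2 in EAE libraries, 4, 5 and 3 in treated libraries and 4, 6 and 8 in naive libraries, below the limit for testing. Adrb1, the β1 receptor gene, was at 10.8, 13.3 and 10.4 against 3.05, 5.10 and 7.77, so that the treated libraries were all below the EAE libraries, with an interval from -2.11 to 0.01. Adra2c, an α2 receptor gene, was also lower in all 3 treated libraries (9.15, 9.17 and 9.99) than in EAE libraries (11.7, 16.4 and 15.6). Of 4 adrenergic receptor genes tested 0 were called and 3 had negative log2 fold changes. Genes with a mean under 20, such as Adrb1 and Adra2c, centred on -0.161 on the log2 scale over 2279 genes.

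Downstream of these receptors, the 28 genes of G protein and cAMP signalling had a median log2 fold change of 0.08, 20 of them positive and 0 called. Pde3b, which encodes a cAMP-degrading phosphodiesterase, was at 427, 437 and 495 against 536, 558 and 574 (0.30 ± 0.11). Prkaca and Prkar1a, genes for the catalytic and a regulatory subunit of protein kinase A, had 0.18 ± 0.09 and 0.13 ± 0.09. In these 3 genes the groups were apart. Of 14 genes that respond to cAMP 8 were positive and 0 called, and their median was 0.08. Among them Fosb, an early response gene, was at 2971, 3999.8 and 6198 in EAE and 9676, 4852 and 3989 in treated libraries, and Dusp1, which encodes a phosphatase of MAP kinases, at 3463, 3517 and 3689.6 and 5363, 4204 and 3479. Treated replicate 1 was the highest of the 6 libraries in both.

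Stem-cell genes divided evenly in direction. Of 27 tested, 14 had positive and 13 negative log2 fold changes, with a median of 0.00 and 0 called. Procr, which encodes the endothelial protein C receptor, was at 466, 454 and 439.8 against 513, 506 and 485, so that all treated values lay above the EAE values. Vwf, the von Willebrand factor gene of platelet-biased stem cells, was at 174, 176 and 186 against 152, 125 and 128 (-0.41 ± 0.16), and Tek, which encodes the Tie2 receptor, at 89.4, 80.8 and 113 against 76.3, 64.2 and 70.0. Both had lower values in all 3 treated libraries. Slamf1, which encodes CD150, overlapped at 91.2, 80.8 and 117 against 89.5, 89.7 and 96.6, and its interval ran from -0.47 to 0.37. Cd48, which marks progenitors beyond the stem cell, overlapped too (-0.23 ± 0.14).

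Genes of retention in the niche had a median of 0.07, with 15 of 24 positive and 0 called. Cxcr4, the receptor for Cxcl12, was at 2279, 2227 and 2292 in EAE libraries and 2591, 2624 and 2561 in treated libraries. The groups were apart, with a log2 fold change of 0.19 ± 0.08 and an interval from 0.01 to 0.38, and the naive libraries were lower than both (1631, 1821 and 1696). Selp, which encodes P-selectin, was at 955, 1120.4 and 933 against 887, 771 and 846 (-0.27 ± 0.11), with naive values of 143, 142 and 177. Itga6, an integrin gene, had treated values (1692, 1579 and 1671) below those of EAE mice (1769.8, 2053 and 1796). The ligand gene Cxcl12 was at 0 to 4 in the 6 libraries as deposited.

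The genes that separate EAE from naive mice in these data had mostly small differences between treated and EAE mice. The list of 36 was chosen on earlier results of the same libraries, so only its treated values bear on the comparison here, and it shares the EAE libraries with the earlier contrast. Its median log2 fold change was -0.06, 15 positive and 21 negative, with Car1 the 1 gene called. Granule genes of granulocyte-monocyte progenitors were close: Elane, the neutrophil elastase gene, was at 985, 1734 and 1156 against 1257, 1051 and 1259, and Prtn3, which encodes proteinase 3, at 6162, 7268 and 5239 against 5814, 5661 and 5840.2. Ms4a3, a marker of these progenitors, was at 614, 928 and 745 against 663, 509.5 and 637 (-0.34 ± 0.15), overlapping through EAE replicate 1. Of 20 tested genes of granulocyte-monocyte progenitors 14 had negative log2 fold changes, with a median of -0.09, and 0 were called. With the chemosensory term the median was 0.02.

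Of 16 tested genes of monocytes and macrophages 9 were positive and 7 negative, with a median of 0.12 and 0 called. The median was 0.02 without EAE replicate 2 and 0.27 without EAE replicate 1. In 4 of them the treated libraries all lay above the EAE libraries and in 2 all below, against 8.46% and 7.71% of all tested genes. Of those higher, Cx3cr1, the fractalkine receptor gene, was at 25.3, 21.5 and 31.3 against 42.7, 37.7 and 32.2, and Adgre1, which encodes the macrophage marker F4/80, at 12.6, 6.14 and 9.38 against 13.2, 17.3 and 14.4. Outside the treated libraries Adgre1 reached the value required for testing only in EAE replicate 1. It was thus tested only because its treated values were high enough, which favours a positive direction. Ccr2, the chemokine receptor gene of inflammatory monocytes, was at 1145, 1088 and 1283 in EAE and 909, 877 and 1072 in treated libraries (-0.31 ± 0.14), against 58.8, 56.9 and 89.2 in naive libraries. Clec5a, which encodes a myeloid lectin receptor, was at 166, 152 and 205 against 115, 108 and 139 (-0.54 ± 0.25). Cxcr2, the receptor gene for neutrophil-attracting chemokines, was at 44.2, 58.3 and 68.8 against 23.4, 23.4 and 38.9, with an interval of the log2 fold change from -1.76 to -0.25. The treated values of Ccr2, Clec5a and Cxcr2 were all below the EAE values and far above the naive values, without passing the test. Apart from Cxcr2, the tested genes of mature neutrophils overlapped between the groups and varied by library. S100a9 was at 3578, 998 and 4717 in EAE and 2312, 4301 and 4786 in treated libraries, and Ltf, the lactoferrin gene, at 647, 147 and 1154 and 464, 888 and 1013. EAE replicate 2 was the lowest in both. The median of the 15 neutrophil genes was 0.36 and became -0.20 without that library.

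Of the stem-cell genes that immunization lowered, Hlf was at 1278, 1175 and 1070.4 in EAE and 1268, 1309 and 1165 in treated libraries, against 3412, 3009 and 3325 in naive libraries. Angpt1, which encodes a Tie2 ligand, Robo4, a guidance receptor gene, and Mecom, a transcription factor gene of stem cells, had log2 fold changes of 0.01 ± 0.18, -0.01 ± 0.13 and -0.08 ± 0.14. All 4 overlapped between the groups and lay far from the naive values. Gria2, a glutamate receptor subunit gene with naive values of 246, 196 and 196, was at 13.5, 12.3 and 10.4 against 15.3, 19.4 and 16.7. F8, which encodes coagulation factor VIII, was low in both immunized groups, at 2.71, 3.07 and 1.04 against 6.10, 9.17 and 8.88, and both genes had their treated libraries above the EAE libraries.

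**Figure D4:**
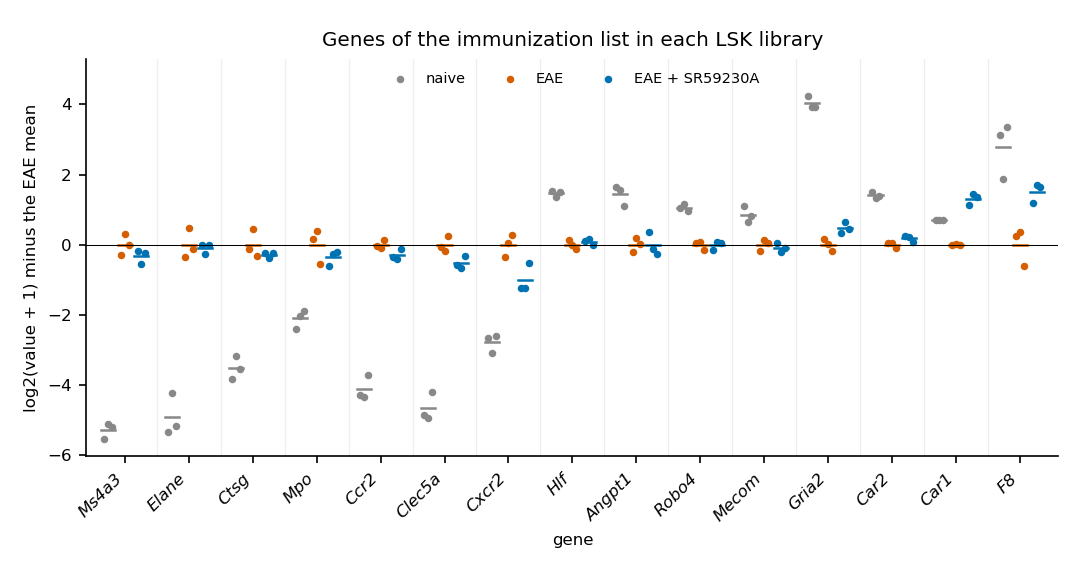
Points are single libraries and lines are group means of log2(value + 1) minus the gene's EAE mean, for 15 genes of the list chosen on the earlier contrast of EAE with naive mice. For most genes the treated libraries lie near 0 with the EAE libraries, and Car1 lies above the naive libraries.

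All 20 tested genes of lymphoid-primed progenitors had positive log2 fold changes, with a median of 0.20 and 0 called. The treated libraries all lay above the EAE libraries in 7 (35.0%), against 8.46% of all tested genes. Without EAE replicate 2, 18 were positive with a median of 0.15, and without scaling 17 with a median of 0.11. With the chemosensory term 14 were positive, with a median of 0.13, and without treated replicate 2, with both linear relations kept as terms, 14 with a median of 0.07. Il7r, the interleukin 7 receptor gene, was at 423, 188 and 505 in EAE and 574, 668 and 559.7 in treated libraries, with EAE replicate 2 far below the rest. Dntt, which encodes terminal deoxynucleotidyl transferase, was at 18187, 13604 and 19139 against 19354, 23321 and 22887 (0.38 ± 0.15). Ccr7, a homing receptor gene, was at 120.1, 89.0 and 73.0 against 124, 181 and 152 (0.71 ± 0.22). Rag1, a recombinase gene, overlapped at 73.1, 21.5 and 49.0 against 69.2, 113 and 78.8. Flt3, which marks the multipotent progenitors with lymphoid bias, was at 4479, 3713 and 4239 against 4596, 4870.2 and 4494 (0.17 ± 0.10).

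Among B cell genes all 13 tested were positive with a median of 0.44, which became 0.16 without EAE replicate 2 and 0.25 with the chemosensory term. Cd79b, a subunit gene of the B cell receptor, was at 752, 713 and 743 against 834, 852 and 825, while Pax5, the commitment factor gene, overlapped at 65.0, 15.3 and 37.5 against 53.9, 89.7 and 57.7. Ms4a1, a marker gene of mature B cells, was low at 1.81, 4.09 and 6.25 in EAE and 6.10, 4.08 and 4.44 in treated libraries. Dendritic cell genes were positive in 11 of 11, with a median of 0.67 that became 0.27 without EAE replicate 2, 0.37 without treated replicate 1 and 0.04 with the chemosensory term. Siglech, of plasmacytoid dendritic cells, was at 30.7, 28.7 and 98 against 235, 77.5 and 55.5, and Clec9a, of conventional ones, at 21.7, 23.5 and 104 against 159, 68.3 and 75.5. Treated replicate 1 was the highest library in both and the groups overlapped. Irf8, a transcription factor gene of this lineage, also overlapped, at 2889.5, 2319 and 3476 against 4792, 3932 and 3439.

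Natural killer and innate lymphoid genes were positive in 11 of 12, with a median of 0.58 and 0 called. Il2rb, which encodes the shared β chain of the receptors for interleukins 2 and 15, was at 53.3, 30.7 and 60.5 in EAE and 82.4, 108 and 92.2 in treated libraries, with an interval of the log2 fold change from 0.26 to 1.74. Id2, a transcription regulator gene of innate lymphoid cells, was at 127, 81.9 and 138 against 182, 188 and 157 (0.63 ± 0.21). Ncr1, which encodes the receptor NKp46, was at 4.51, 2.05 and 8.34 against 15.3, 15.3 and 14.4, and Klrb1c, which encodes NK1.1, at 94.8, 97.2 and 78.2 against 99.7, 106 and 107. Ncr1 reached the value required for testing only in the treated libraries. The filter thus fixed its positive direction and separate groups, which are no finding of the test. Klrk1, of the same list, reached that value outside the treated libraries only in EAE replicate 3. Both are among the 11 positive genes. The groups of Klrb1c were apart without Ncr1, by a narrow margin (99.7 in the lowest treated and 97.2 in the highest EAE library). Summed over these 2 markers, treated libraries held 115 to 121 and EAE libraries 86.5 to 99.4. That sum includes Ncr1, so the gap between its groups follows in part from the filter. The median became 0.33 without EAE replicate 2 and 0.14 with the chemosensory term. Whether cells of this type entered the sort was not tested.

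For T cells, 10 of 13 tested genes were positive with a median of 0.26, and 0 were called. The median was 0.43 without EAE replicate 1, 0.15 without treated replicate 1 and 0.10 with the chemosensory term. With both linear relations kept as terms and 1 library left out it ran from 0.01, without treated replicate 2, to 0.61, without EAE replicate 1. Lck, a kinase gene of T cell receptor signalling, was at 367, 315 and 341 against 412, 446 and 408 (0.31 ± 0.11), and Il2ra, which encodes CD25, at 14.4, 5.12 and 14.6 against 51.9, 28.5 and 15.5. Cd5 ran the other way at 27.1, 34.8 and 14.6 against 3.05, 6.11 and 11.1 (-1.84 ± 0.55). Foxp3, the lineage factor gene of regulatory T cells, was at 2, 5 and 1 in EAE and 1, 0 and 0 in treated libraries as deposited, too low to test. The T cell markers Cd3g, Cd4 and Cd8a summed to 165 to 187 in EAE and 149 to 185 in treated libraries, nearly all of it Cd4.

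A pair of eosinophil genes had the highest log2 fold changes of all tested genes. Ear6, an eosinophil ribonuclease gene, was at 8.13, 1.02 and 4.17 in EAE and 51.9, 55.0 and 26.7 in treated libraries, and Epx, which encodes eosinophil peroxidase, at 1.81, 2.05 and 2.08 and 30.5, 21.4 and 13.3. The groups were well apart in both, with log2 fold changes of 3.26 ± 0.61 and 2.87 ± 0.53, but neither passed (adjusted p = 0.451 for each). The naive libraries were at 29.4, 14.2 and 52.6 for Ear6 and 9.12, 15.2 and 5.63 for Epx, above the EAE libraries as well. Outside the treated libraries Epx reached the value required for testing only in naive replicate 2. It was thus tested only because its treated values were high enough, so its rank and separate groups follow in part from the filter. Ear6 reached that value in every naive library, so its test did not depend on the treated libraries. Prg2, which encodes the eosinophil major basic protein, was at 154, 530.0 and 652 against 1011, 660.4 and 1055, so that the lowest treated library was just above the highest EAE library. Ear6 has near-identical relatives, and its counting is uncertain for that reason. Of the 13 tested genes of basophils, mast cells and eosinophils 8 were positive and 5 negative, with a median of 0.26 and 0 called. The treated libraries all lay above the EAE libraries in 5 (38.5%), against 8.46% of all tested genes. The mast cell gene Cpa3 (142, 175 and 143 against 183, 182 and 181) and Ms4a2, which encodes the β chain of the IgE receptor (24.4, 17.4 and 22.9 against 39.7, 37.7 and 31.1), had separate groups. Mcpt8, the basophil protease gene, overlapped at 138, 279 and 159 against 169, 149 and 183.

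Chaperone genes of the unfolded protein response were positive in 18 of 22, with a median of 0.20 and 0 called. The treated libraries all lay above the EAE libraries in 8 (36.4%), against 8.46% of all tested genes. Without scaling 13 were positive, with a median of 0.12, and the median was 0.12 without EAE replicate 1, 0.13 without EAE replicate 3 and 0.05 with the chemosensory term. Pdia4, which encodes a disulfide isomerase of the endoplasmic reticulum, was at 1742, 1764 and 1626 against 2237, 2236 and 2042 (0.34 ± 0.12). Creld2 was at 771, 856 and 823 against 1031, 1058 and 1021, and Sel1l, a gene of protein degradation from the endoplasmic reticulum, at 2197, 2333 and 2444 against 2712, 2743 and 2797. In these 3 genes the treated libraries were all higher. The genes for Hspa5, the chief chaperone of the compartment, and Hsp90b1 had log2 fold changes of 0.32 ± 0.23 and 0.28 ± 0.14.

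Mitotic genes went slightly the other way. Of 25 tested 17 were negative and 8 positive, with a median of -0.05 and 0 called. In 7 of them the treated libraries all lay below the EAE libraries and in 1 all above, against 7.71% and 8.46% of all tested genes. Cdca8, a subunit gene of the chromosomal passenger complex, was at 1002, 1030.4 and 959 against 823, 829 and 826 (-0.27 ± 0.10), and the spindle checkpoint kinase gene Ttk at 442, 458 and 508 against 393, 381 and 412. Prc1, which encodes a protein of the central spindle, was at 894, 981 and 885 against 749.6, 767 and 837. Bub1b, another checkpoint gene, was higher instead, at 1602, 1575 and 1599.9 against 1674, 1741 and 1765. For DNA replication the median was -0.02 over 27 genes, and for oxidative phosphorylation it was 0.03 over 52.

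**Figure D5:**
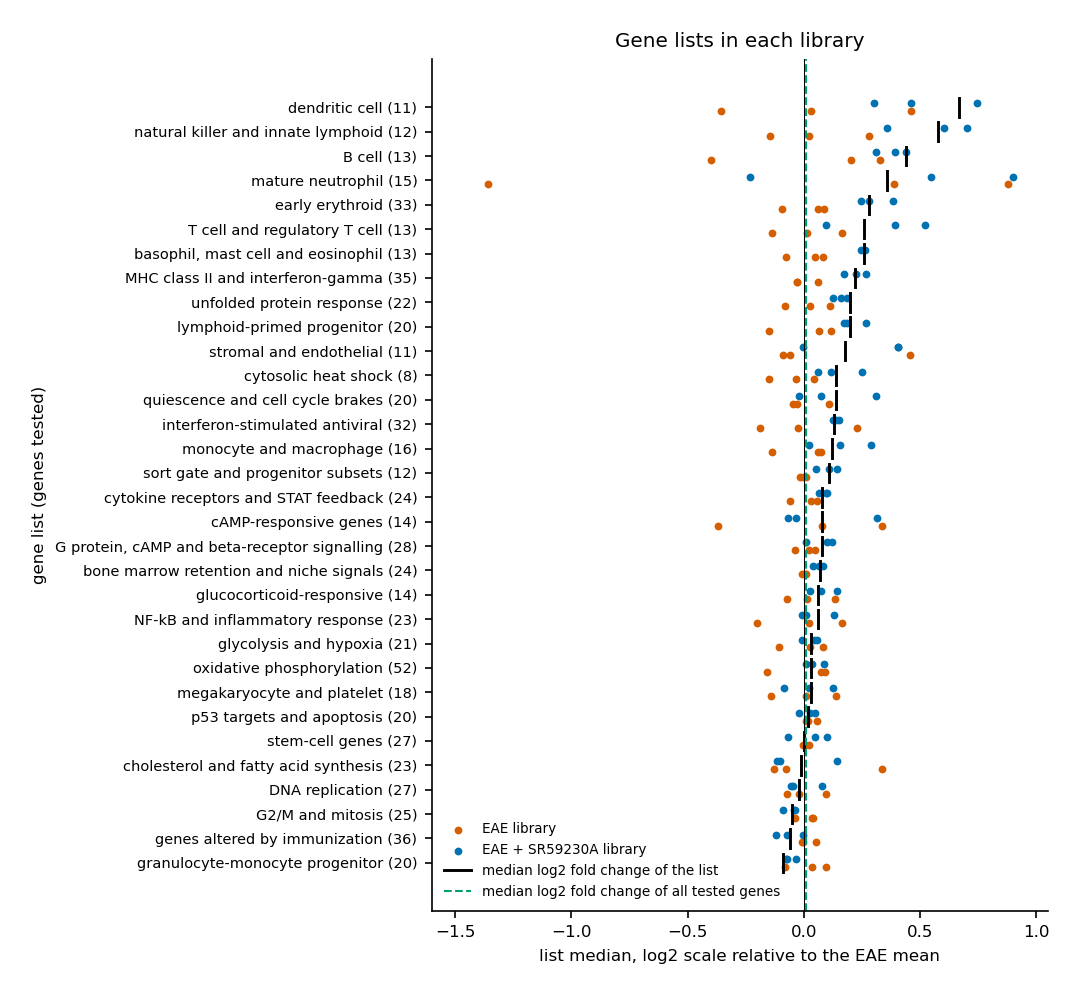
Each row is a gene list with at least 5 tested genes, with its number of tested genes in brackets. Points give the median of the list in single EAE and treated libraries, black bars the median log2 fold change of the list and the dashed line that of all tested genes (0.01). The early erythroid and MHC lists have separate groups. So do others, among them the lymphoid-primed progenitor, natural killer and unfolded protein response lists. The basophil, mast cell and eosinophil list does too, at -0.077 to 0.085 in EAE and 0.246 to 0.263 in treated libraries. The neutrophil list spreads from -1.361 in EAE replicate 2 to 0.901 in a treated library.

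Outside the lists, the genes with the lowest p and a mean of at least 50 came from several functions. Sdc4, which encodes the heparan sulfate proteoglycan syndecan 4, was at 102, 108 and 89.6 in EAE and 167, 180.4 and 157 in treated libraries (0.75 ± 0.15), with higher naive values (259.5, 287 and 237). Sipa1, a gene for a regulator of the GTPase Rap1, was at 875, 951 and 815 against 1106, 1288 and 1313 (0.49 ± 0.10). Cd52, which encodes a small surface glycoprotein of leukocytes, was at 1633, 1696 and 1484 against 2253, 2389.7 and 2179 (0.51 ± 0.12). For Sipa1 the naive libraries overlapped with the treated ones, and for Cd52 they lay below them. Camk1d, a calcium-dependent kinase gene, was at 451, 408 and 494 against 609, 626 and 606, and Ces2g, a carboxylesterase gene, at 126, 116 and 128 against 169.9, 227 and 248. Epha1, an ephrin receptor gene, was at 332, 225 and 344 against 643, 529 and 402, and Ube2l6, which encodes the conjugating enzyme for the interferon-induced modifier ISG15, at 650.1, 657 and 577 against 781, 844 and 804. In each of these 7 genes all treated libraries were above all EAE libraries, and none passed over all genes.

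In the lower direction the gene with the lowest p was AY761185, at 358, 421 and 334 in EAE and 208, 193 and 211 in treated libraries. It had a log2 fold change of -0.86 ± 0.14 and an interval from -1.16 to -0.55 (adjusted p = 0.243), and the naive libraries lay with the EAE libraries or above them (487, 375 and 467). The long noncoding RNA gene 5730435O14Rik was at 135, 115 and 116 against 49.8, 48.9 and 54.4 (-1.24 ± 0.26). With the 6 libraries fitted alone it passed the threshold (adjusted p = 0.0483), as it did when both linear relations were kept as terms in that fit (0.0439). Over all its alternatives the adjusted p ran from 0.0439 to 1.0. Gm20594 was at 358, 301 and 417 against 241, 222 and 229.9 and Dennd4a, which encodes a Rab exchange factor, at 339.5, 331 and 348 against 257, 249 and 255. Zeb2, a transcription factor gene of blood lineages, was at 1368, 1219 and 1299 against 1059, 1053 and 1023 (-0.31 ± 0.09), with naive values lower still (773, 879 and 854). Wdhd1, a replication factor gene, was at 500.2, 515 and 606 against 440.4, 398 and 434. The treated libraries were below the EAE libraries in each of these genes, by less than 1.5-fold in the last 3.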

How the data were processed

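The single deposited table gives whole numbers for 14940 symbols in 9 libraries, and the 6 of the treated and EAE groups are compared here. Per the labels' protocols, RNA came from sorted cells and was prepared with an RNeasy micro kit. The unit of the deposited values is treated as a score, since the labels do not describe how they were made. DESeq2 is named in the submitters' processing notes, with no version. Aligner, build, annotation and depth were not given in the sources used here. In a principal component analysis of genes averaging 500 or more, the last 2 of 8 components took up 6.7e-05% and 5.94e-05% of the variance and the one before them 2.44%, a gap that independent reads do not give. A count test was therefore not used.

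Libraries were brought to a common scale by median-of-ratios factors, and 13018 genes reaching 10 in at least 3 libraries were kept. Differences in log2(value + 1), on which low genes show too small a change, were tested by limma-trend, 2-sided (R 4.3.3 with limma 3.58.1), over all 9 libraries. Terms of the model were the groups and, as covariates, the 2 directions without variance (4 residual degrees of freedom, prior 7.52), with Benjamini-Hochberg adjustment over all genes and a threshold of 0.05.

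The libraries, gene lists and the choice of genes were made with earlier results of these data known, so lists are described by counts and medians and not tested. Named are genes past the threshold, the 12 genes with the lowest p in each direction among those with a mean of at least 50 and separate groups, and from each list the members with separate groups and up to 5 more by lowest p, or the whole of a short list. Klf1, Adrb3, Foxp3 and Cxcl12 are given from deposited values. Some genes that this choice names are not reported here. Alternatives were other scalings, filters and pseudocounts, no covariates, the 6 libraries alone, a term for chemosensory genes and leaving out each library. Promoter windows are from RefSeq (GRCm38.p6), with annotated untranslated regions from GENCODE.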

Additional observations from a re-analysis of the deposited data

How the results depend on the processing

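Car1 was the 1 gene called under every change of scaling, filter and pseudocount, with group coefficients alone, and without any 1 library when the linear relations were found anew. With the 6 libraries alone 2 genes were called (Car1 and 5730435O14Rik), and with the chemosensory term 0. In 2 alternatives added after seeing the data, both relations were kept as terms: the 6 libraries alone then gave 8 genes (also AY761185, Aqp1, Ear6, Igtp, Mmp23 and Prg2), with 2 residual degrees of freedom, and leaving out 1 library gave 0 to 1. Genes with an unadjusted p under 0.05 numbered 1348 with group coefficients alone, 1206 with the 6 libraries alone, 292 to 1093 without 1 library and 369 to 793 with both relations kept. With a minimum of 50 in 3 libraries they were 240 higher and 107 lower, against 290 and 214. Scaling moved the median log2 fold change from 0.01 to -0.075 when left out and to -0.009 by upper quartile, so small positive medians of lists depend on it in part. Depth is unknown, and the 95% interval was within 2-fold for 8.42% of genes with a mean under 20. No paired analysis was possible because the labels give no replicate numbers shared between the groups, and the numbers used here follow the order of deposition.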

Other observations

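Some early response and stress genes were highest in treated replicate 1. Klf6, a transcription factor gene induced early, was at 5105, 5488 and 5330.1 in EAE and 8891, 6742 and 5436 in treated libraries, and Tnfaip3, which encodes the NF-kB inhibitor A20, at 1026, 1133 and 1410.2 and 2864, 1823 and 1388. Klf4 was at 486, 375 and 568 against 986, 627 and 425, and the heat shock gene Hspa1b at 30.7, 55.3 and 36.5 against 165, 73.4 and 41.1. In all 4 genes treated replicate 1 was the highest of the 6 libraries and the groups overlapped. The 23 NF-kB and inflammatory response genes and the 14 cAMP-responsive genes did not share this order as lists: by median EAE replicate 3 was the highest of the 6, at 0.167 and 0.336, with treated replicate 1 at 0.129 and 0.316. Naive replicate 2 was the highest of the naive libraries in the same 4 genes, at 4721, 1508, 414 and 181.

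Of 14 genes that respond to glucocorticoids 10 were positive, with a median log2 fold change of 0.06 and 0 called. Ddit4, which encodes an inhibitor of mTOR signalling, was at 660.1, 1018 and 1012 in EAE and 1249, 1215 and 1470.3 in treated libraries (0.57 ± 0.18), and Fkbp5, a chaperone gene of the glucocorticoid receptor, at 1680.4, 1886 and 1596 against 1903, 1993 and 2056 (0.21 ± 0.09). The treated libraries lay above the EAE libraries in both. Among cell cycle genes outside mitosis, the D-type cyclin gene Ccnd2 was at 1234, 1134 and 1205 against 1469.8, 1434 and 1325 (0.24 ± 0.09). Stat3, a transcription factor gene of cytokine signalling, was at 3997, 3981 and 3909 against 4366, 4579 and 4599 (0.19 ± 0.09), within a list of 24 cytokine receptor and STAT genes of which 20 were positive and 0 called. Among platelet lineage genes 10 of 18 were positive, with a median of 0.03.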
